A study of Lens culinaris with 20 samples.

Results

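Flowers of lentil (Lens culinaris), a grain legume, were compared with mature leaves for the level of every miRNA in the deposited table. The comparison took 2 libraries of flowers and 3 of mature leaves, 5 of the 20 small RNA libraries in a survey of 7 tissues. All 1464 distinct mature sequences of the table, called features here, entered it; 1070 had no named family and the rest fell into 80 families. The labels give the tissue only, with no cultivar, age or treatment, and state that RNA was taken from pooled samples. Whether the libraries of one tissue stem from different plants is not stated, so the p-values reflect the spread among libraries alone, part or all of which may be technical.

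Flowers 1 and 2 held 260825 and 1126068 reads. Mature leaves 1, 2 and 3 held 584284, 116624 and 82777 reads. A value of 0 in the table stands for fewer than about 5 reads, which equals 15.5 and 3.86 CPM in flowers 1 and 2 and 12.8, 42.5 and 58.1 CPM in mature leaves 1, 2 and 3. CPM is counts per unit of 1e+06 reads, with the library size adjusted by TMM, a correction for composition. Mature leaves 1 stood apart from the other leaf libraries. Over the 142 features above 0 in all 5 libraries its median absolute log2 difference was 0.856 to mature leaves 2 and 0.888 to mature leaves 3, against 0.228 between mature leaves 2 and 3 and 0.468 between both flower libraries. Most fold changes and counts of calls are therefore also given without it. The table holds miRNAs only, so marker transcripts of flower or leaf cells were not read.

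Plant miRNAs are short RNAs of mostly 21 nt, cut by a Dicer-like enzyme from a hairpin precursor. One strand is loaded into an Argonaute protein and guides the cutting or silencing of mRNAs to which it pairs over nearly its whole length. Many conserved families control transcription factors, so they are known for timing the change from the juvenile to the adult and flowering phase and for shaping leaves, meristems and floral organs. Because whole organs were sampled, fewer cells of a type and less RNA per cell cannot be told apart.

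The sequences below are members that the results turn on, shown so that related members can be compared base by base. They are given 5′ to 3′ as the deposited table lists them, with T for U, and bases 2 to 8, often called the seed, are in capitals. The first 4 are grouped as miR156 by name, the next 3 belong to miR319, and the eighth is the related miR159. The fourth, csi-miR156j-5p, is unlike the first 3 in sequence.
mtr-miR156b-5p: tGACAGAAgagagtgagcac
ath-miR156a-5p_L+1: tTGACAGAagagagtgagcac
mtr-miR156e: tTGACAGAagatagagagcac
csi-miR156j-5p: aGCTGCTGactcgttggttca
mtr-miR319a-3p_R+1: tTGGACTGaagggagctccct
gma-miR319f_1ss17TC: tTGGACTGaaggggcccctt
ath-miR319c_L+1R-1: tTTGGACTgaagggagctcct
mtr-miR159a: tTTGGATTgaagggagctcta
The names, with a prefix for the species of a known miRNA or lcum for lentil, are printed as in the table.

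A second set shows members of miR164 and miR167, which act in auxin-related development, of miR172, the partner of miR156 in phase change, and of miR4414, a family known from legumes.
ath-miR164a: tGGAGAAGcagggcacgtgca
ath-miR167d_1ss22GA: tGAAGCTGccagcatgatctga
ath-miR167a-5p: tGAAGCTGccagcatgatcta
ath-miR172a: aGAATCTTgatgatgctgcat
aly-miR172b-5p_1ss7CG: gCAGCAGCatcaagattcaca
gma-miR4414a-3p_L+1_1ss10TA: aTCCAACGaagcgggagctgc

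Of 56 families with enough reads to test, 10 were higher in flowers and 8 were lower (edgeR quasi-likelihood F-test over all 20 libraries, Benjamini-Hochberg adjusted p under 0.05 and a log2 fold change of 1 or more in size). That is 32.1% of the families tested, 17.9% higher and 14.3% lower. miR319, miR4414, miR8176, miR164, miR171 and miR394 were among the families higher in flowers, and miR156, miR167, miR172 and miR5232 among those lower. Without mature leaves 1 there were 10 higher (17.9%) and 5 lower (8.93%), 26.8% in all, and 14 families (25% of those tested) were called both ways. All 18 called families had flower libraries that did not overlap the leaf libraries, as did 60.7% of all families tested.

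Among single features, 340 were tested, 38 were higher in flowers (11.2%) and 28 were lower (8.24%), so that 19.4% were called. Without mature leaves 1 the numbers were 21 (6.18%) and 20 (5.88%), 12.1% in all, and 39 features (11.5%) were called both ways. The flower and leaf libraries of all 66 did not overlap, as held for 47.1% of the features tested. The split between the directions depended on scaling and on how repeated entries were counted. It was 54 higher and 21 lower with library size alone, 41 and 24 with DESeq2 size factors, and 33 and 28 with the authors' factors. When 1 entry was kept per repeated sequence, which changes the reads and leaves 321 features to test, it was 61 and 18. With only features whose sequence lies unchanged in the precursor it was 44 and 16. Relative to TMM, the median log2 fold change of the 142 features above 0 in all 5 libraries moved by 0.403 with library size alone, by 0.0968 with DESeq2 size factors, by -0.232 with the authors' factors and by 0.7 with 1 entry kept. Of the 66 features called, 51 were also called under all 4 of these settings.

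**Figure D1:**
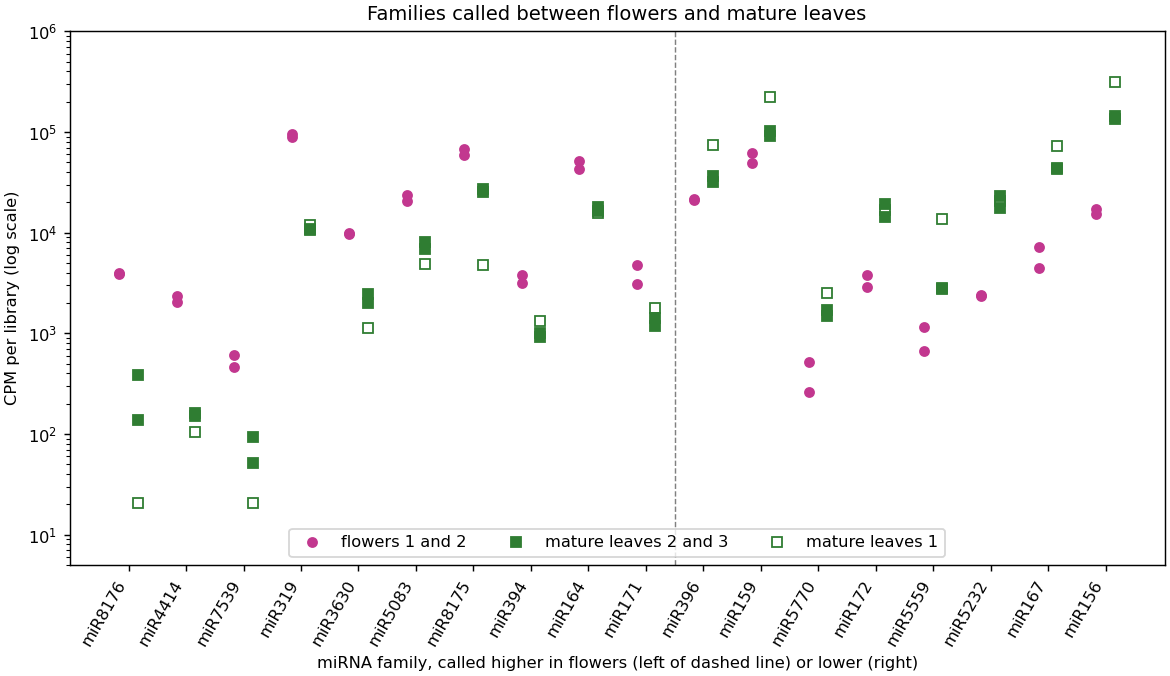
Levels of the 18 called families in each library, in CPM on a log axis. Circles are flowers 1 and 2, filled squares mature leaves 2 and 3, and open squares mature leaves 1. The 10 families left of the dashed line were higher in flowers and the 8 right of it lower, and the open squares lie far from the filled ones for miR8176, miR8175 and miR5559.

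**Figure D2:**
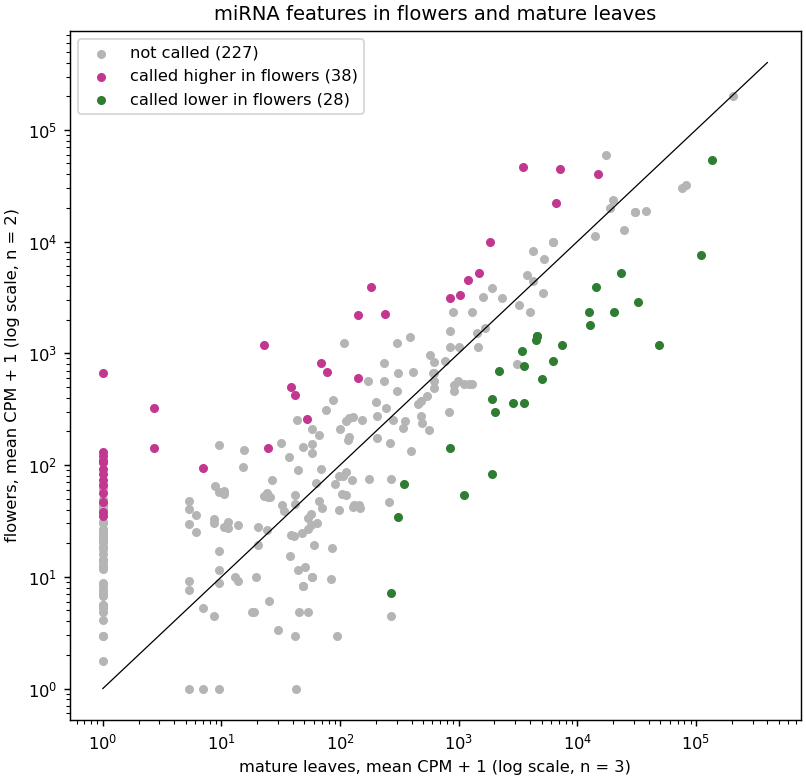
Mean level in flowers (n = 2) against mature leaves (n = 3) for the tested features above 0 in either tissue, as CPM + 1 on log axes, with the line of equality. The 38 features higher in flowers and the 28 lower are coloured, and the column of points at the left edge holds features at 0 in all 3 leaf libraries, 15 of them called.

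Both families of phase change were lower in flowers (median log2 fold change -2.97, against 0.295 over all 56 families). miR156, which keeps plants juvenile by silencing SPL transcription factors, had 15308 and 17223 CPM in flowers 1 and 2, against 312350, 144037 and 135879 CPM in mature leaves 1, 2 and 3. Every leaf library lay far above both flower libraries. The log2 fold change was -3.60 ± 0.44 (SE, adjusted p = 3.5e-07), and -3.11 ± 0.39 without mature leaves 1 (adjusted p = 9.22e-07). miR156 took 1.9% and 1.98% of the miRNA reads in flowers 1 and 2, against 20.8%, 14.5% and 14.1% in mature leaves 1, 2 and 3.

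miR172, which silences AP2-like factors and is known to promote the adult phase and floral organ identity, had 2860 and 3812 CPM in flowers, against 16677, 19177 and 14442 CPM in mature leaves. The leaf libraries again lay above both flower libraries, and mature leaves 1 was not the highest. Its log2 fold change was -2.33 ± 0.47 (adjusted p = 0.000343) and stayed at -2.33 ± 0.50 without mature leaves 1 (adjusted p = 0.000593). The ratio of miR156 to miR172 within a library, which no scaling affects, was 5.35 and 4.52 in flowers against 18.7, 7.51 and 9.41 in mature leaves. Flowers thus held less of both families, and less miR156 for each read of miR172.

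The features grouped as miR156 by name did not all move together. Of 31 features in the family, 20 were tested, 2 were higher in flowers, 10 were lower and 8 did not pass (of all 340 features, 11.2% were higher and 8.24% lower). The main 20-nt form mtr-miR156b-5p had 7764 and 7525 CPM in flowers, against 170721, 84363 and 76508 CPM in mature leaves (log2 fold change -3.85 ± 0.48, and -3.40 ± 0.43 without mature leaves 1). The same sequence with 1 more base at its 5′ end, ath-miR156a-5p_L+1, had 1097 and 1279 CPM in flowers, against 82124, 32053 and 31510 CPM in mature leaves (log2 fold change -5.35 ± 0.52, and -4.74 ± 0.42 without mature leaves 1). It had the most negative log2 fold change among all features called lower. By contrast, mtr-miR156e, which differs from it inside the molecule, had 4656 and 5911 CPM in flowers, against 35208, 16864 and 17567 CPM in mature leaves (log2 fold change -2.14 ± 0.42, and -1.70 ± 0.39 without mature leaves 1). The differences between these members were not tested.

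The motif GACAGAAGA, bases 2 to 10 of mtr-miR156b-5p, was searched on the given strand of each feature. It lies in 11 of the 20 tested members, of which 0 were higher, 6 lower and 5 did not pass, and is held by 1.23% of all features in the table. The 9 tested members without it held both that were higher, csi-miR156j-5p and aly-miR157d-3p, beside 4 that were lower. Of these, csi-miR156j-5p was grouped by its name alone, and its sequence is unlike the other miR156 members shown above. csi-miR156j-5p had 127 and 153 CPM in flowers. In mature leaves 1 it had 5.13 CPM, below the 5-read level of 12.8 CPM, and it was at 0 in mature leaves 2 and 3. Without mature leaves 1, against 5 reads in each remaining leaf library, it was at least 2.78-fold higher in flowers. aly-miR157d-3p had 34.1 and 75.7 CPM in flowers and 0 in all leaf libraries. Its 34.1 CPM in flowers 1 lies below the 5-read level of mature leaves 2 and 3 (42.5 and 58.1 CPM). The aly-miR157d-3p call was lost without mature leaves 1 (adjusted p = 0.0948) and without flowers 2.

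The miR172 members also differed. ath-miR172a had 1952 and 2696 CPM in flowers, against 12428, 14738 and 10608 CPM in mature leaves (log2 fold change -2.44 ± 0.53, adjusted p = 0.00244). It was -2.45 ± 0.56 without mature leaves 1, and the call was just lost without flowers 1 (adjusted p = 0.0509). Its form with another last base, ath-miR172a_1ss21TG, averaged 414 ± 147 CPM in flowers (SD, n = 2) and 538 ± 133 CPM in mature leaves (SD, n = 3) and did not pass in edgeR's test (-0.37 ± 0.51, adjusted p = 0.703, and -0.45 ± 0.56 without mature leaves 1). ath-miR172c_1ss7TC had 136 and 144 CPM in flowers, against 28.2, 42.5 and 0 CPM in mature leaves, and was called higher (2.45 ± 0.77, adjusted p = 0.0354). That call was lost without mature leaves 1 (2.58, adjusted p = 0.0948). It was also lost without mature leaves 3 (adjusted p = 0.0803), without flowers 1 (adjusted p = 0.0981) and without flowers 2 (adjusted p = 0.113).

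Among 5 families of auxin signalling and trans-acting siRNA production, 1 was higher in flowers, 1 was lower and 3 did not pass, both with and without mature leaves 1 (median log2 fold change 0.243). That is close to the shares over all 56 families, 17.9% higher and 14.3% lower. miR164, which silences NAC factors that set organ boundaries, had 43181 and 50879 CPM in flowers, against 15538, 17910 and 16417 CPM in mature leaves. It was 2.83-fold higher in flowers (adjusted p = 0.00124), and the log2 fold change without mature leaves 1 was 1.45 ± 0.38 (adjusted p = 0.00516). miR167, which silences auxin response factors needed for fertile stamens and ovules in Arabidopsis, moved the other way.

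miR167 had 4421 and 7226 CPM in flowers, against 71728, 43976 and 43058 CPM in mature leaves. Its log2 fold change was -3.18 ± 0.40 (adjusted p = 3.5e-07), and -2.90 ± 0.39 without mature leaves 1 (adjusted p = 1.16e-06). The ratio of miR164 to miR167 within a library was 9.77 and 7.04 in flowers, against 0.217, 0.407 and 0.381 in mature leaves. miR164 was thus above miR167 in both flower libraries and below it in all 3 leaf libraries.

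Within miR167, 8 features were tested, 5 were lower (8.24% of all features were) and 3 did not pass. The 22-nt ath-miR167d_1ss22GA had 2051 and 3680 CPM in flowers, against 44255, 27435 and 25561 CPM in mature leaves (log2 fold change -3.50 ± 0.43, and -3.21 ± 0.40 without mature leaves 1). Another 22-nt form, ath-miR167a-5p_R+1_1ss21AT, was also lower (-2.84 ± 0.43, and -2.64 ± 0.42 without mature leaves 1). The 21-nt ath-miR167a-5p, which differs from both only at the 3′ end, had 149 and 182 CPM in flowers, against 97.5, 119 and 128 CPM in mature leaves (log2 fold change 0.54 ± 0.62, adjusted p = 0.612, and 0.42 ± 0.69 without mature leaves 1). Whether the 21-nt form differs in its change from the 22-nt forms was not tested.

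Within miR164, 9 features were tested, 4 were higher (11.2% of all features were) and 5 did not pass. The main form ath-miR164a had 35262 and 45689 CPM in flowers, against 14360, 16218 and 14570 CPM in mature leaves (log2 fold change 1.43 ± 0.33, adjusted p = 0.00391, and 1.39 ± 0.37 without mature leaves 1). Minor forms had larger folds. ath-miR164a_1ss21AT, with another last base, had 669 and 981 CPM in flowers, against 35.9, 76.5 and 92.9 CPM in mature leaves (3.67 ± 0.80, and 3.29 ± 0.90 without mature leaves 1). ath-miR164a_R+1, with 1 more base at the 3′ end, averaged 321 ± 108 CPM in flowers (SD, n = 2). In mature leaves 1 it had 5.13 CPM, below the 5-read level of 12.8 CPM, and it was at 0 in mature leaves 2 and 3. It was at least 6.38-fold higher in flowers when mature leaves 1 was left out.

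The other 3 families of the list did not pass. miR160, which silences a further group of auxin response factors, had 6230 and 5477 CPM in flowers, against 3666, 5485 and 4345 CPM in mature leaves (log2 fold change 0.38 ± 0.48, adjusted p = 0.559, and 0.25 ± 0.53 without mature leaves 1). miR390, which starts the production of tasiRNAs, had 25212 and 22430 CPM in flowers, against 16064, 22485 and 21831 CPM in mature leaves (0.24 ± 0.37, adjusted p = 0.631, and 0.10 ± 0.40 without mature leaves 1). miR393, which silences auxin receptors, had 483 and 583 CPM in flowers, against 359, 680 and 546 CPM in mature leaves (0.02 ± 0.66, adjusted p = 0.993, and -0.20 ± 0.73 without mature leaves 1). The flower and leaf libraries overlapped for all 3 of these families.

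Among 8 families that silence developmental and meristem regulators, 4 were higher in flowers (miR319, miR164, miR171 and miR394), 2 were lower (miR159 and miR396) and 2 did not pass (median log2 fold change 0.854), beside 17.9% higher and 14.3% lower of all 56 families. With mature leaves 1 left out, 4 were higher and 0 lower. miR319 had the largest log2 fold change among them. It silences TCP transcription factors, which in Arabidopsis limit cell division in leaf and petal margins. It had 89268 and 96110 CPM in flowers, against 11882, 10817 and 10596 CPM in mature leaves, so that both flower libraries lay far above the leaf libraries. Its log2 fold change was 3.06 ± 0.37 (adjusted p = 3.5e-07), and 3.11 ± 0.42 without mature leaves 1 (adjusted p = 1.16e-06). miR319 took 11.1% of the miRNA reads in each flower library, against 0.793%, 1.09% and 1.1% in mature leaves 1, 2 and 3.

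Of 12 tested miR319 features, 7 were higher (11.2% of all features were) and 5 did not pass. The motif TTGGACTGAAGGG, bases 1 to 13 of mtr-miR319a-3p_R+1, lies on the given strand in 6 of them, of which 5 were higher and 1 did not pass, and in 0.546% of all features. The 20-nt gma-miR319f_1ss17TC had 44677 and 47581 CPM in flowers, against 3489, 3257 and 3799 CPM in mature leaves (log2 fold change 3.71 ± 0.47, and 3.71 ± 0.56 without mature leaves 1). The 21-nt mtr-miR319a-3p_R+1, which matches it at 15 of 20 aligned bases, had 42620 and 46113 CPM in flowers, against 7897, 7263 and 6437 CPM in mature leaves (2.62 ± 0.36, and 2.70 ± 0.42 without mature leaves 1). These main members were thus level with each other in flowers, while in mature leaves the 21-nt one was the higher. As a share of the family, 20-nt forms made up 50.2% and 49.6% in flowers, against 29.4%, 30.1% and 35.9% in mature leaves.

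miR159, which silences GAMYB-like factors needed for anther development and seed aleurone, is the closest relative of miR319. The leading members mtr-miR159a and mtr-miR319a-3p_R+1 match at 17 of 20 aligned bases. miR159 had 48959 and 61204 CPM in flowers, against 220512, 101941 and 90636 CPM in mature leaves. It was called lower (log2 fold change -1.32 ± 0.38, adjusted p = 0.00706), and the call was lost without mature leaves 1 (-0.81 ± 0.34, adjusted p = 0.0714) and without flowers 1 (-1.17, adjusted p = 0.0903). With library size alone the log2 fold change was -0.81. The ratio of miR319 to miR159 within a library was 1.82 and 1.57 in flowers, against 0.0539, 0.106 and 0.117 in mature leaves, so the more abundant of the pair differed between the tissues.

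miR171, which silences GRAS factors that maintain meristems, had 3120 and 4763 CPM in flowers, against 1786, 1412 and 1185 CPM in mature leaves (log2 fold change 1.43 ± 0.43, adjusted p = 0.0094). Without mature leaves 1 it was 1.60 ± 0.48 (adjusted p = 0.0134), and the call was lost without flowers 2 (1.09, adjusted p = 0.128). Of its 9 tested features 4 were higher (11.2% of all features were). ath-miR170-5p, by its name a 5′ arm form, had 449 and 549 CPM in flowers, against 113 CPM in mature leaves 1 and 0 in mature leaves 2 and 3, and without mature leaves 1 it was at least 9.92-fold higher. The ath-miR170-5p call was lost without flowers 2 (adjusted p = 0.0678).

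miR394, which silences an F-box gene active in shoot meristems and leaf shape, had 3135 and 3799 CPM in flowers, against 1319, 1004 and 918 CPM in mature leaves. Its log2 fold change was 1.68 ± 0.47 (adjusted p = 0.00706), and 1.85 ± 0.54 without mature leaves 1 (adjusted p = 0.012). The call was lost without flowers 2 (1.53, adjusted p = 0.0525).

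miR396, which silences growth-regulating factors, had 21547 and 20866 CPM in flowers, against 74632, 36381 and 31893 CPM in mature leaves. It was called lower (-1.17 ± 0.44, adjusted p = 0.0421), but not without mature leaves 1 (-0.69 ± 0.42, adjusted p = 0.276), without flowers 1 (-1.19, adjusted p = 0.154) or without flowers 2 (-1.14, adjusted p = 0.182). For this family and for miR159, mature leaves 1 lay far above the other leaf libraries.

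miR166, which silences HD-ZIP III factors of leaf polarity and vascular patterning, was the most abundant family of both tissues, apart from mature leaves 1, where miR156 and miR398 lay above it. There miR398 led it narrowly, by 102740 to 102012 reads. Counting features of identical counts once left out 15811 miR166 reads in that library, so this order depends on the counting. miR166 had 207379 and 259686 CPM in flowers, against 261727, 236947 and 236205 CPM in mature leaves, and the libraries overlapped (log2 fold change -0.07 ± 0.31, adjusted p = 0.898). Its direction changed with the scaling, from -0.30 with the authors' factors to 0.34 with library size alone, and it was -0.02 ± 0.33 without mature leaves 1. Keeping 1 entry per sequence, a counting rule, gave 0.63. Of 17 tested members 2 were higher, 1 was lower and 14 did not pass, near the shares of all features (11.2% and 8.24%). The 5′ arm form mtr-miR166e-5p had 4251 and 4744 CPM in flowers, against 1693, 935 and 976 CPM in mature leaves (1.90 ± 0.57, adjusted p = 0.023). Its call held without mature leaves 1 (2.23, adjusted p = 0.031) but was lost without mature leaves 2 (0.0837), mature leaves 3 (0.0784), flowers 1 (0.0784) or flowers 2 (0.107), each an adjusted p. miR169, which silences NF-YA factors, had 170 and 261 CPM in flowers, against 262, 145 and 116 CPM in mature leaves and did not pass (0.28 ± 0.70, adjusted p = 0.81, and 0.73 ± 0.81 without mature leaves 1), and its sign too changed with the scaling.

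**Figure D3:**
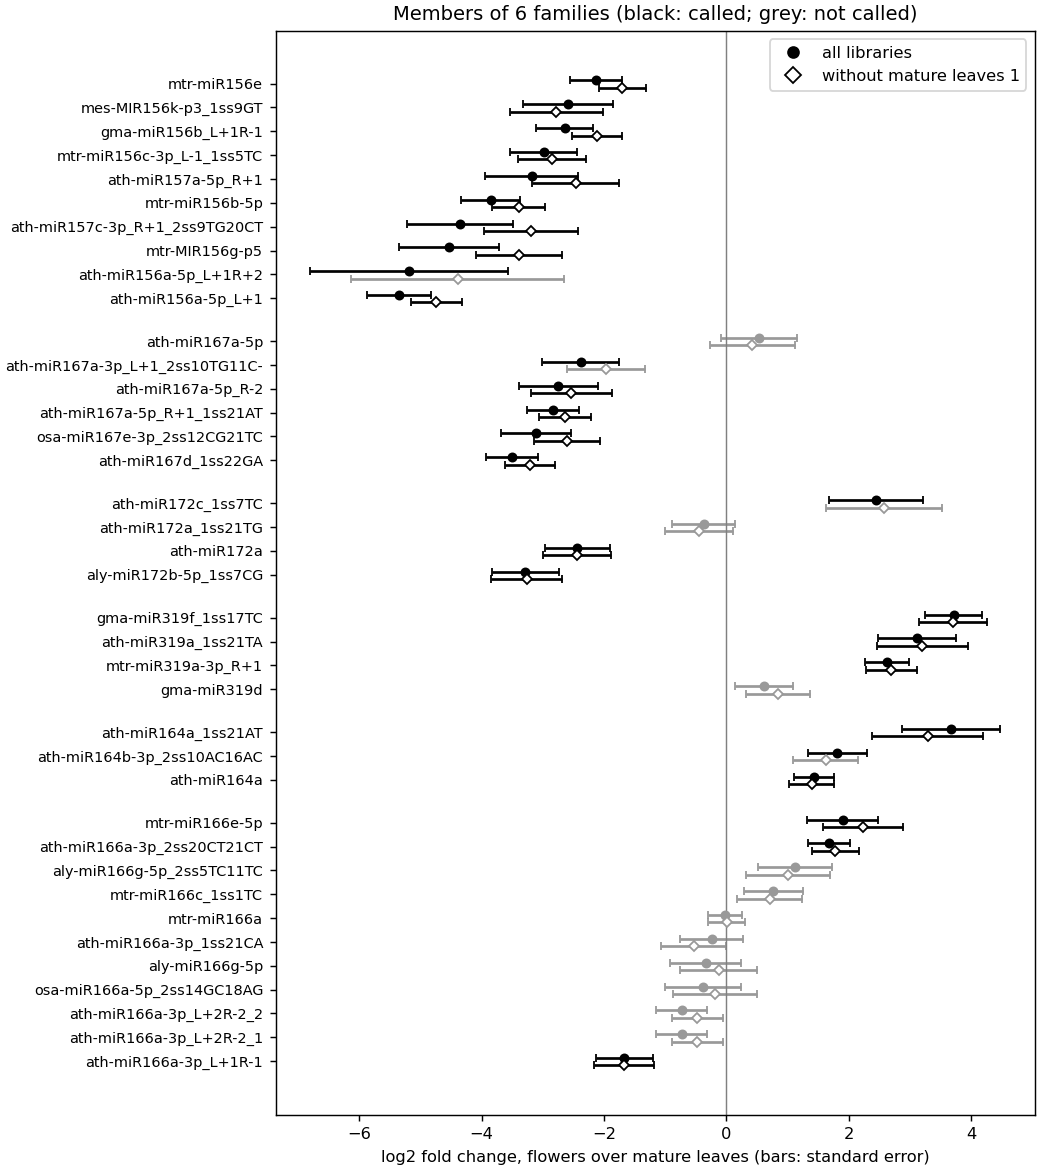
Log2 fold change of flowers over mature leaves for members of 6 families with a mean of at least 100 CPM in the higher tissue and reads in mature leaves 2 or 3, with the standard error. Circles use all libraries and diamonds leave out mature leaves 1. Members at 0 in both of those libraries, such as csi-miR156j-5p, are left out, so the side on which a family's points lie is in part set by that choice. mtr-miR156b-5p lies at -3.85 and gma-miR319f_1ss17TC at 3.71 with all libraries.

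Legume families gave 1 higher, 2 lower and 6 that did not pass, of 9 tested (median log2 fold change -0.137), a share called close to the 32.1% of all families. miR4414 had 2342 and 2067 CPM in flowers (mean 2204 ± 195, SD), against 139 ± 30.0 CPM in mature leaves (SD, n = 3). Both flower libraries lay far above all leaf libraries, and the family was called higher (edgeR, adjusted p = 1.04e-06), with a log2 fold change of 3.81 ± 0.63 without mature leaves 1 (adjusted p = 1.94e-05). Its single tested feature, gma-miR4414a-3p_L+1_1ss10TA, shares a listed hairpin of 71 nt with gma-miR319f_1ss17TC, the miR319 member described above. The hairpin is shown with both mature sequences in capitals, miR4414 first and miR319 second.
gma-miR4414a and gma-miR319f: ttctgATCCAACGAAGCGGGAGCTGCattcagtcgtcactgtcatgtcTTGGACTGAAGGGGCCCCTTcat
miR4414 lies on the listed 5′ arm, although its name says 3p. The log2 ratio of its reads to those of miR319 on this hairpin was -4.25 and -4.53 in flowers, against -5.05, -4.33 and -4.65 in mature leaves, and the tissues overlapped. Both listed sequences were therefore higher in flowers at a like ratio, and whether their reads come from this hairpin was not tested.

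miR5232 was lower in flowers, at 2373 and 2341 CPM, against 20371, 23123 and 17718 CPM in mature leaves. Its log2 fold change was -3.11 ± 0.48 (adjusted p = 8.89e-06) and -3.11 ± 0.51 without mature leaves 1 (adjusted p = 1.94e-05). miR5559 had 1152 and 664 CPM in flowers, against 13500, 2772 and 2823 CPM in mature leaves, so that its level in mature leaves 1 was far above the other leaf libraries. It was called lower (-2.81 ± 0.92, adjusted p = 0.019), but not without mature leaves 1 (-1.62 ± 0.85, adjusted p = 0.176), without flowers 1 (adjusted p = 0.0903) or without flowers 2 (adjusted p = 0.182). The other legume families that did not pass were miR1511, miR1514, miR2119, miR4415, miR530 and miR391. miR1511 had 19778 and 16936 CPM in flowers, against 11256, 10673 and 9504 CPM in mature leaves (0.81 ± 0.39, adjusted p = 0.106, and 0.86 ± 0.43 without mature leaves 1).

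Of 4 copper families, known to fall when copper is plentiful, 0 were called by edgeR, against 32.1% of all 56 families (median log2 fold change -0.104). miR398, which silences copper/zinc superoxide dismutases, had 84856 and 39423 CPM in flowers, against 263595, 108795 and 105415 CPM in mature leaves. Although all leaf libraries lay above both flower libraries, it did not pass (log2 fold change -1.36 ± 0.65, adjusted p = 0.106), nor without mature leaves 1 (-0.79 ± 0.64, adjusted p = 0.431). miR408, which silences copper-binding proteins, had 2023 and 2675 CPM in flowers, against 644, 1429 and 1824 CPM in mature leaves (0.86 ± 0.61, adjusted p = 0.26), and the value was 0.53 ± 0.65 without mature leaves 1 (adjusted p = 0.549). miR397, which silences laccases, had 15.5 and 14.7 CPM in flowers and 0 in all leaf libraries, and such levels lie under the 5-read level of mature leaves 2 and 3.

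Of 2 nutrient families, none was called with all libraries, against 32.1% of all 56 families. miR395, which silences ATP sulfurylases and a sulfate transporter, had 533 and 603 CPM in flowers, against 151, 51.0 and 0 CPM in mature leaves. It did not pass with all libraries (2.91 ± 1.16, adjusted p = 0.0608) and was called higher without mature leaves 1 (4.34 ± 1.48, adjusted p = 0.0294). miR399, of phosphate homeostasis, had 449 and 688 CPM in flowers, against 844, 519 and 581 CPM in mature leaves (-0.19 ± 0.82, adjusted p = 0.898, and 0.05 ± 0.90 without mature leaves 1), and its sign also changed with the scaling.

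The small RNA machinery families did not pass with all libraries either. miR168, which silences Argonaute, had 15323 and 11968 CPM in flowers, against 26003, 15563 and 12815 CPM in mature leaves (-0.41 ± 0.47, adjusted p = 0.526, and -0.06 ± 0.49 without mature leaves 1). miR162, which silences Dicer-like, had 2079 and 1946 CPM in flowers, against 9308, 2925 and 3265 CPM in mature leaves (-1.36 ± 0.60, adjusted p = 0.0857). For miR162 the value was -0.62 ± 0.58 without mature leaves 1 (adjusted p = 0.511), and it was called lower without mature leaves 2 (-1.65, adjusted p = 0.0499).

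None of 4 tested families that trigger phased siRNAs was called (miR482, miR1509, miR2118 and miR5213), against 32.1% of all 56 families. The largest, miR482, silences disease resistance genes and had 13588 and 26380 CPM in flowers, against 16843, 16924 and 22679 CPM in mature leaves (0.09 ± 0.41, adjusted p = 0.898, and 0.01 ± 0.45 without mature leaves 1). Of 7 families listed for anthers, pollen and pigment, 4 were tested and 2 were lower, beside 14.3% lower of all 56 families. These were miR159 and miR167, of which only miR167 was called without mature leaves 1. miR858, which silences MYB factors of flavonoid synthesis, had 0 and 26.3 CPM in flowers and 0 in mature leaves. miR858 did not pass with all libraries (adjusted p = 0.102) or without mature leaves 1 (adjusted p = 0.333) and was called higher without flowers 1 (adjusted p = 0.0261). Its 26.3 CPM lies above the 5-read level of mature leaves 1 and below that of mature leaves 2 and 3.

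Several further called families rest on few or short sequences. miR8176, a 19-nt feature, had 3900 and 3938 CPM in flowers, against 20.5, 136 and 383 CPM in mature leaves (log2 fold change 4.54 ± 0.79, adjusted p = 4.87e-05, and 3.93 ± 0.74 without mature leaves 1). miR3630, also of 19 nt, had 9663 and 9984 CPM in flowers, against 1124, 2449 and 1975 CPM in mature leaves (2.41 ± 0.62, adjusted p = 0.00334). miR5083 had 20832 and 23682 CPM in flowers, against 4823, 8071 and 6936 CPM in mature leaves (1.75 ± 0.42, adjusted p = 0.00206). For each of them both flower libraries lay above every leaf library, and each family's call held without mature leaves 1 (miR3630 2.15 ± 0.68, miR5083 1.57 ± 0.46). The single feature of miR3630, vvi-miR3630-3p_L-3_1ss22CT, was not called without mature leaves 1 when tested among features (adjusted p = 0.0625). miR7539 had 459 and 610 CPM in flowers, against 20.5, 51.0 and 92.9 CPM in mature leaves. Its leaf values stand for 7.5, 6 and 7.5 reads, close to the 5-read level. miR7539 was called higher (3.43 ± 0.88, adjusted p = 0.00334, and 2.91 ± 0.97 without mature leaves 1). miR5770 was lower (-2.29 ± 0.68, adjusted p = 0.0094, and -2.03 ± 0.71 without mature leaves 1). The miR5770 call was lost without flowers 1 (-1.88, adjusted p = 0.131).

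miR8175, led by the 18-nt ath-miR8175_L-2, was grouped here with families of doubtful standing as miRNAs. It had 67129 and 58856 CPM in flowers, against 4767, 25470 and 27129 CPM in mature leaves. It was called higher (1.72 ± 0.65, adjusted p = 0.0421), but not without mature leaves 1 (1.26 ± 0.62, adjusted p = 0.148), without flowers 1 (1.62, adjusted p = 0.155) or without flowers 2 (1.81, adjusted p = 0.128). The other 3 doubtful families, miR5368, miR6173 and miR4995, did not pass. Summed over all 4, the level was 86840 and 86400 CPM in flowers, against 35790, 85480 and 95190 CPM in mature leaves, lowest in mature leaves 1.

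Families rich in roots in earlier results of these data served as a check for other tissue. Their summed level was 3541 and 4280 CPM in flowers, against 505, 2857 and 2405 CPM in mature leaves. Nearly all of it was miR10423, and none of the 3 families was called, against 32.1% of all 56 families. miR397 and miR4415 were at 0 in all leaf libraries. The part of these families in the results above was not tested.

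Some features were read in flowers and listed at 0 in leaves. Of all features, 69 were at 0 in the 3 leaf libraries and above 5 reads in both flower libraries, and 0 features showed the reverse. The flower libraries are deeper than mature leaves 2 and 3, and 12 of the 69 lay above the 5-read level of every leaf library in both flower libraries. ath-miR319c_L+1R-1, which matches mtr-miR319a-3p_R+1 at 19 of 20 aligned bases, had 582 and 739 CPM in flowers. Set against 5 reads in each leaf library, it was at least 17.5-fold higher in flowers, and at least 13.1-fold without mature leaves 1. The next were mtr-MIR395g-p5_1ss13CT with 118 and 141 CPM (at least 3.42-fold) and mtr-miR319a-5p_L-1 with 130 and 110 CPM (at least 3.18-fold). The call of mtr-MIR395g-p5_1ss13CT was lost when any 1 of the 5 libraries was left out. Of the 38 features called higher, 15 were at 0 in all leaf libraries, and without mature leaves 1 only ath-miR319c_L+1R-1 among those named here was still called.

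Features with no family were seldom called. Of 124 tested, 4 were higher in flowers and 0 were lower, against 66 called of all 340. Many of them were rare, since 41 of the 124 were at 0 in both tissues. The 24-nt lcum-miR-22305_643-3p was called with and without mature leaves 1.
lcum-miR-22305_643-3p: tTGCATTCgtatactcctacactt
It had 818 and 1562 CPM in flowers, against 23.1, 42.5 and 0 CPM in mature leaves (log2 fold change 5.66 ± 0.92, adjusted p = 0.000159). Without mature leaves 1 the value was 5.65 ± 1.14 (adjusted p = 0.00196). Both flower libraries lay far above the leaf libraries, and the table names no target for it.

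The balance between the arms of a hairpin does not depend on scaling. In 18 hairpins both arms had at least 5 reads in all 5 libraries. Each arm is represented by a single listed form, so reads of its other forms were not counted. Reads were taken as divided among entries, so a form listed in several entries was counted in part. The flower and leaf libraries did not overlap in 7 of them. An exact permutation test of 2 against 3 libraries allows 10 splits and no two-sided p below 0.2, so no hairpin could pass a threshold, and adjusted p was 0.514 or more.

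Of 3 miR166 hairpins, 2 held relatively more 5′ arm reads in flowers. For mtr-miR166e-5p against mtr-miR166a, the log2 ratio of 5′ to 3′ arm was -5.38 and -5.58 in flowers, against -6.97, -7.77 and -7.66 in mature leaves, a difference of 1.99 (2.24 without mature leaves 1). For aly-miR166g-5p_2ss5TC11TC against ath-miR166a-3p_L+1R-1 it was 0.828 and 1.08 in flowers, against -2.06, -1.76 and -1.68 in mature leaves, a difference of 2.79. With reads as divided among entries, the 5′ form was above the 3′ form in flowers and below it in leaves. In flowers 1 these were 205 and 115.5 reads, and the latter is not a whole count. Which form was the more abundant in flowers before reads were divided was not tested. The difference was 2.68 without mature leaves 1. This 3′ form is mtr-miR166a shifted by 1 base. The far more abundant mtr-miR166a, with 56948 and 292728 reads in flowers, was not counted for this pair. The remaining hairpin, osa-miR166a-5p_2ss14GC18AG against ath-miR166a-3p_L+2R-2_1, differed by 0.315 with overlapping libraries (exact permutation p = 0.4). The hairpin of mtr-miR166a, with both arms in capitals, reads as follows.
mtr-miR166e-5p and mtr-miR166a: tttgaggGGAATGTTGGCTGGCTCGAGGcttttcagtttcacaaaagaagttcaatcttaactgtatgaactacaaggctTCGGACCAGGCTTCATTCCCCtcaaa

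A miR172 pair of listed forms shifted the other way. For aly-miR172b-5p_1ss7CG against ath-miR172a_1ss21TG the log2 ratio was 1.16 and 0.537 in flowers, against 3.91, 3.37 and 3.94 in mature leaves, a difference of -2.89 (-2.81 without mature leaves 1). The 3′ form is listed in 2 entries, and the ratio counts 50 and 335 of its 100 and 670 reads in flowers. This raises the ratio alike in all libraries, so its level does not show which form was the more abundant. The 5′ arm itself fell to 347 and 375 CPM in flowers, against 3615, 3563 and 3393 CPM in mature leaves (log2 fold change -3.28 ± 0.55, and -3.27 ± 0.58 without mature leaves 1). ath-miR172a_1ss21TG, given above, did not pass. In the listed hairpin, however, the 3′ arm has the sequence of ath-miR172a, which was called lower (-2.44 ± 0.53). The difference of -2.89 therefore holds for this pair of listed forms and not for the whole arms. The miR162 hairpin (1.52) and both miR396 hairpins (-1.08 and -0.847) had large differences too, but their flower and leaf libraries overlapped.

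**Figure D4:**
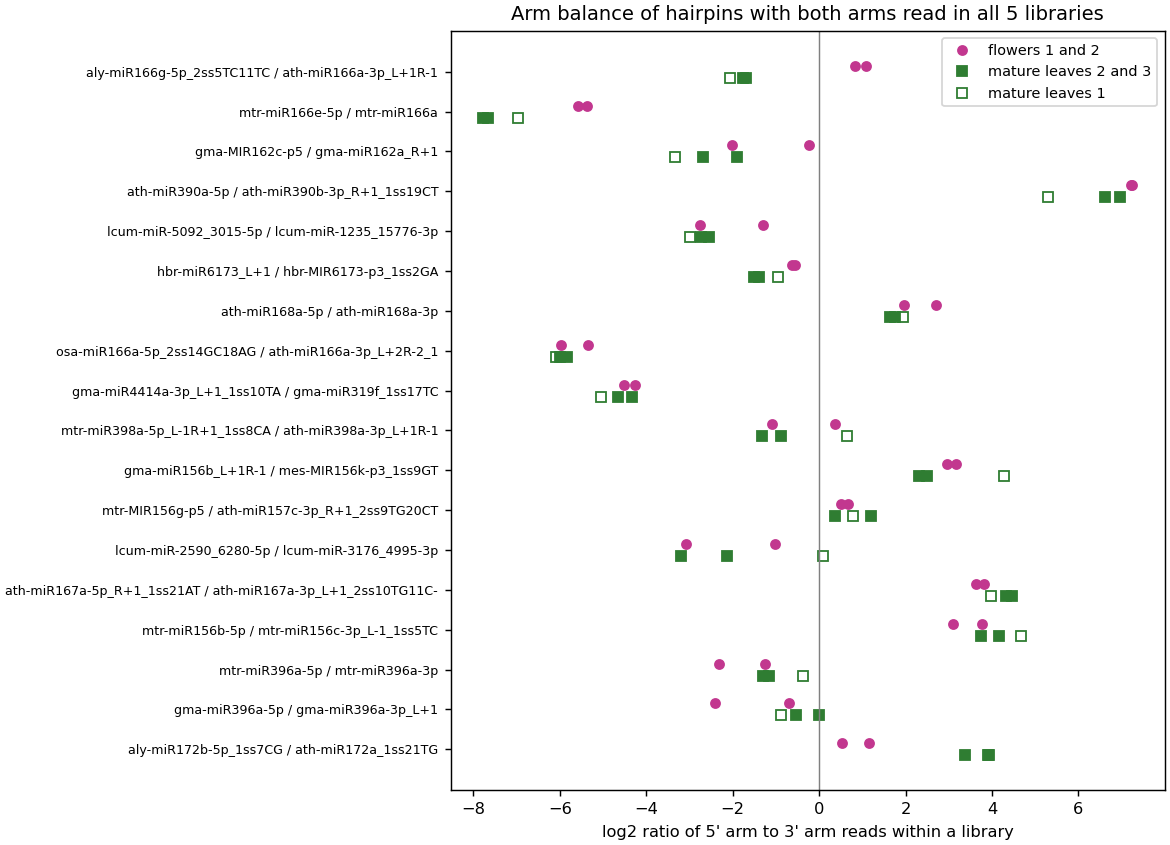
Log2 ratio of 5′ arm to 3′ arm reads of 18 hairpins in each library, with a single listed form for each arm, ordered by the difference between tissues. Reads are as divided among entries. Circles are flowers 1 and 2, filled squares mature leaves 2 and 3, and open squares mature leaves 1, and the tissues lie well apart in the upper 2 rows (miR166) and the lowest row (miR172).

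The length of the reads differed little in its main class. Features of 21 nt, the usual product of plant Dicer-like cutting, held 69.3% and 72.3% of the miRNA reads in flowers, against 69.1%, 73.6% and 72.4% in mature leaves. Features of 18 and 19 nt held 12.2% and 10.3% in flowers, against 1.08%, 5.19% and 5.09% in mature leaves. Both flower libraries were above all leaf libraries, which the exact two-sided permutation test gives its smallest possible p of 0.2 (adjusted p = 0.4 over 6 classes). The difference was 7.47 percentage points, and 6.12 without mature leaves 1. Of these short reads, ath-miR8175_L-2 made up 62.6% in flowers and 40.0% in mature leaves on average. Features of 22 nt were lower, at 9.07% and 6.71% in flowers, against 16.9%, 9.68% and 11.4% in mature leaves (p = 0.2 in the same exact test), a difference of -4.77 percentage points, and -2.62 without mature leaves 1.

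**Figure D5:**
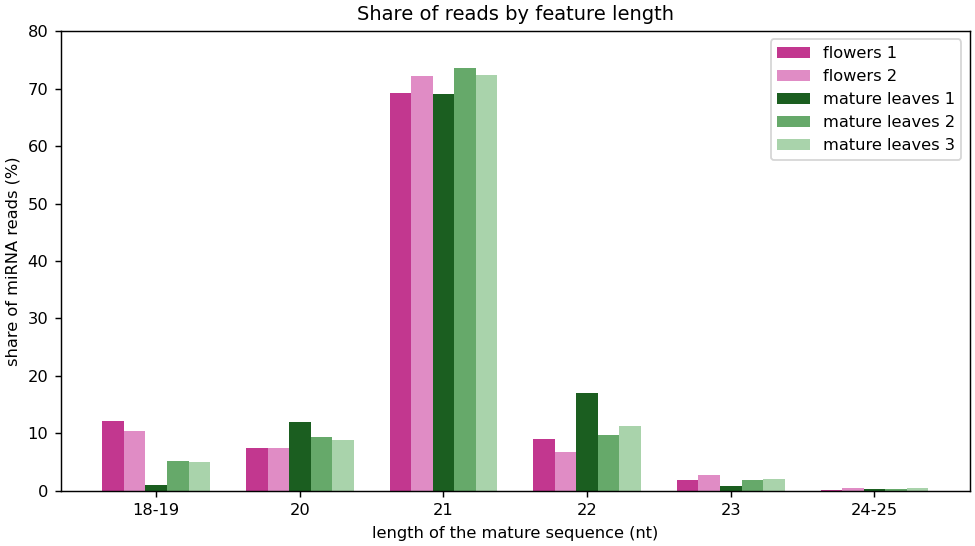
Share of each library's miRNA reads by length of the feature, in percent, for flowers 1 and 2 and mature leaves 1, 2 and 3. The 21-nt class holds about 70% in every library, and the 18 to 19-nt class is highest in both flower libraries and lowest in mature leaves 1.

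Flower buds, sampled as a separate tissue, showed few of these differences from flowers. Of the 56 families, 3 were higher in flowers than in buds and 1 was lower (7.14%), and none of them was among the 18 called against leaves. miR319 had 92689 ± 4838 CPM in flowers (SD, n = 2) and 103487 ± 43478 CPM in buds (SD, n = 3), a log2 fold change of -0.16 ± 0.36 (edgeR, adjusted p = 0.759). miR156 had 16265 ± 1355 CPM in flowers and 28162 ± 10049 CPM in buds (-0.79 ± 0.39, adjusted p = 0.187). Both were therefore nearer to buds than to leaves, with a difference from buds that did not pass.

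The 4 called families were miR5368 (log2 fold change 1.94 ± 0.54), miR6173 (2.83 ± 0.72) and miR4995 (3.38 ± 1.02), all from the doubtful list, and miR166. miR166 had 233533 ± 36987 CPM in flowers and 579556 ± 220937 CPM in buds (-1.31 ± 0.32, edgeR, adjusted p = 0.0183). Leaving out 1 library of buds or flowers at a time left 0 to 2 calls. Among features, 16 of 340 (4.71%) were called against buds. One was mtr-miR156e, with 5284 ± 887 CPM in flowers and 19867 ± 7638 CPM in buds (-1.91 ± 0.42, edgeR, adjusted p = 0.0238).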

How the data were processed

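Small RNA was read in 20 libraries of 7 lentil tissues, of which the 2 of flowers and 3 of mature leaves are described and flower buds are set beside them. Per the labels' protocols, total RNA of pooled samples was made into TruSeq Small RNA libraries. For the trimming, aligner, miRNA caller and build, the sources used here name none. Per the file headers, the raw columns are expected counts deposited by the authors, in which 25.8% of the values above 0 were not whole (tolerance 0.01). The other columns are a normalized signal that the authors made with 1 factor per library, used here only as an alternative scaling. The table's column of lengths, deposited by the authors, gave the length classes.

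The table held 1642 entries, and 7 further lines are not reported here. Entries with the same mature sequence became 1 feature by summing. The rule written down first kept the entry with the highest total, on the assumption that repeats count the same reads. All 177 repeated sequences had identical counts in their entries, and 160 of 164 with fractions became whole on summing, so the reads had been divided, and summing replaced that rule after the data were seen. The first rule is an alternative. Family tests used the TMM factors of the features, also chosen after the data were seen, with factors from the families alone as an added alternative. Families follow the numbers in the names; miR157 was added to miR156, miR170 to miR171 and miR165 to miR166. Features of a family with identical counts in all libraries were counted once.

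Counts were rounded and filtered with filterByExpr by tissue. Tests were edgeR 4.0.16 quasi-likelihood F-tests (limma 3.58.1, R 4.3.3) with TMM and tissue as the only term, over all 20 libraries, checked on simulated data. Errors after a log2 fold change are standard errors. For a feature at 0 in all leaf libraries the fitted fold entered the calls but is not given. The bound divides its mean CPM in flowers by the mean CPM of 5 reads in the leaf libraries. It covers neither counting error nor the spread among libraries. For mtr-MIR169a-p3_1ss12CT, called higher, the bound was only 1.92-fold. Alternatives included DESeq2 1.42.0 and leaving out each library. Arm ratios used 1 listed form per arm, with reads as the authors divided them among entries. Plots and shares were made with Python 3.11.15. Named are the families of the function lists, the most abundant features, the largest changes called with and without mature leaves 1, features at 0 in one tissue, and the arm pairs of largest difference. Members outside that rule, such as ath-miR172c_1ss7TC, ath-miR172a_1ss21TG and ath-miR167a-5p, and families called outside the lists were chosen after their values were seen. The comparison, the members and the lists were chosen with earlier results of these data known.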

Additional observations from a re-analysis of the deposited data

How the results depend on the processing

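Features called numbered 66. Leaving out 1 library gave 37 to 56 (37 without flowers 1, 41 without mature leaves 1), with 25 higher and 12 lower without flowers 1. Other settings gave 53 (no filter) to 79 (1 entry kept per sequence), and 27 features were called in all 16 settings that tested them. Features whose sequence lies unchanged in the precursor gave 44 higher and 16 lower, no filter 37 and 16, a minimum mean CPM 28 and 32, and the DESeq2 Wald test 39 and 31. Families called numbered 18, and 13 to 19 without 1 library. Their split was 10 higher and 8 lower, against 12 and 5 with library size alone, 18 and 5 with 1 entry kept, 17 and 5 with unchanged sequences only and 10 and 4 without flowers 1. Against flower buds 4 families were called, 0 to 2 without 1 library and 2 with TMM factors from the families alone, an alternative added after seeing the data. The difference in the share of 21-nt reads, -0.886 percentage points, was -5.13 with 1 entry kept and 4.71 with unchanged sequences only, and that of 18 and 19-nt reads, 7.47, was 1.42 with unchanged sequences only. The cause was not tested. Of the values for named features, families and hairpins, 1177 kept their side of the threshold, 51 lost a call, 26 gained one and none of those called changed sign. A further 2 were counted as moved, apart from any gain or loss of a call. For 9 results called in neither setting the sign changed 39 times (miR166, mtr-miR166a, miR168, miR169, miR391, miR393, miR399, miR482 and miR5213). The arm ratio of gma-miR396a-5p, -1.08, was -0.228 without flowers 1 and -1.94 without flowers 2. Flowers and leaves share replicate numbers, but the labels give no pairing. The deviations of same-numbered libraries from their tissue means correlated at -0.107 and 0.0248. With 2 flower libraries these deviations are mirror images (flowers 2 with mature leaves 1 gave 0.107), so the values cannot show whether libraries were paired. With a replicate block 60 features (34 higher, 26 lower) and 17 families were called. Depth limits rare features most, since 5 reads equal 58.1 CPM in mature leaves 3 and lower values were seldom listed.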

Other observations

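Reads that begin with C made up 6.28% and 6.16% in flowers, against 1.9%, 3.34% and 3.24% in mature leaves. Those that begin with T, the base that the table writes for U, made up 68.4% and 73.6% in flowers, against 72.8%, 72.1% and 71.1% in mature leaves. Features listed with N as their first letter held 2.65% and 2.76% in flowers, against 2.82%, 2.71% and 3.2% in mature leaves. The 10 most abundant features of a library held 67.0% and 66.5% of its reads in flowers, against 73.8%, 65.3% and 65.5% in mature leaves. mtr-miR166a was the most abundant feature in both flower libraries and in mature leaves 2 and 3, and mtr-miR159a was in mature leaves 1. The ratio of miR398 to miR408, both copper families, was 41.9 and 14.7 in flowers, against 409, 76.2 and 57.8 in mature leaves. The ratio of miR160 to miR167, both of which silence auxin response factors, was 1.41 and 0.758 in flowers, against 0.0511, 0.125 and 0.101 in mature leaves. These ratios were not tested.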
